A study of Mus musculus with 10 samples.

Results

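Cargo crosses the nuclear pore on soluble carriers, and the small GTPase Ran sets the direction. Import carriers load in the cytoplasm and release their cargo when they bind Ran-GTP in the nucleus, whereas export carriers leave the nucleus as a complex of cargo, carrier and Ran-GTP that falls apart once GTP is hydrolysed. 10 genes of this system were followed here: the export carriers Xpo1 and Cse1l, the import carrier Kpnb1, the adaptors Kpna1, Kpna2, Kpna3 and Kpna4, and the Ran cycle genes Ran, Ranbp1 and Rangap1. The set was chosen by the intensity of Xpo1, which had been seen to be higher in XX females of 1 cross than of the other, and the remaining genes were added by function. The Xpo1 difference is therefore a description, and the question asked is whether the other factors follow Xpo1. The array carried 14 probe sets for these 10 genes, of 12422 probe sets that are not controls and of 8251 named genes. 12 of the 14 were bright enough to be tested, and the 2 that were not are the dimmer probe sets of Xpo1 and Kpnb1.

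RNA of whole brain taken from newborn mice was measured on 10 arrays. The cross written C57BL/6J x C3H/Paf gave 3 arrays of XmO animals, which have 39 chromosomes and by their name a single maternal X, and 3 of XX_Paf females, which have 40 chromosomes. The cross written In(X)/C3H x C57BL/6J gave 2 arrays of XpO animals (39 chromosomes, by their name a single paternal X) and 2 of XX_InX females (40 chromosomes). In(X) is an inverted X chromosome. All groups thus mix C57BL/6J and C3H backgrounds, no treatment is named, and the labels do not say whether an array holds 1 animal or a pool. The cross is confounded with the parental origin of the single X, and no hybridisation batch is named. Replicates that shared a litter or an extraction cannot be recognised, so p-values measure only the spread between these arrays.

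Values are the deposited linear intensities, whose trimmed mean is the same on all 10 arrays to within rounding, so they had been scaled. Xist, transcribed from the inactive X, lay between 21.3 and 49.9 on the XO arrays and between 1673 and 4082 on the XX arrays; no array went against its label. All 10 measured neuron markers were above background on every array, background being the brightest of 9 Y-linked probe sets on that array. A probe set is called where the adjusted p of limma over 8695 probe sets is under 0.05. The XX females of the crosses differed widely: 37.1% of all tested probe sets had XX_Paf and XX_InX arrays that did not overlap, against 17.4% for XmO and XpO. These are bulk samples, in which fewer cells of a type and less RNA per cell cannot be told apart.

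Xpo1 encodes the main receptor for proteins carrying a leucine-rich nuclear export signal. Its brighter probe set read 1388, 1242 and 1352 on the XX_Paf arrays and 722 and 801 on the XX_InX arrays. The XO arrays lay between these groups, at 1078, 1142 and 1044 in XmO and at 1057 and 983 in XpO. Every XX_Paf array was thus above every other array and both XX_InX arrays were below every other array, while XmO and XpO overlapped. The means were 1328 ± 76.3 (SD, n = 3) in XX_Paf, 1088 ± 49.8 (n = 3) in XmO, 1019.8 ± 52.0 (n = 2) in XpO and 761 ± 56.2 (n = 2) in XX_InX. The difference for which the gene was noticed was 0.80 on the log2 scale (SE 0.13, 1.74-fold) for XX_Paf over XX_InX. It ranged from 0.73 to 0.88 when single arrays were left out, and the call ended without any 1 of the 5 XX arrays or without XmO 7. Xpo1's dimmer probe set, at 22.5 to 71.6, was below background on 9 of 10 arrays and adds no measurement.

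**Figure D1:**
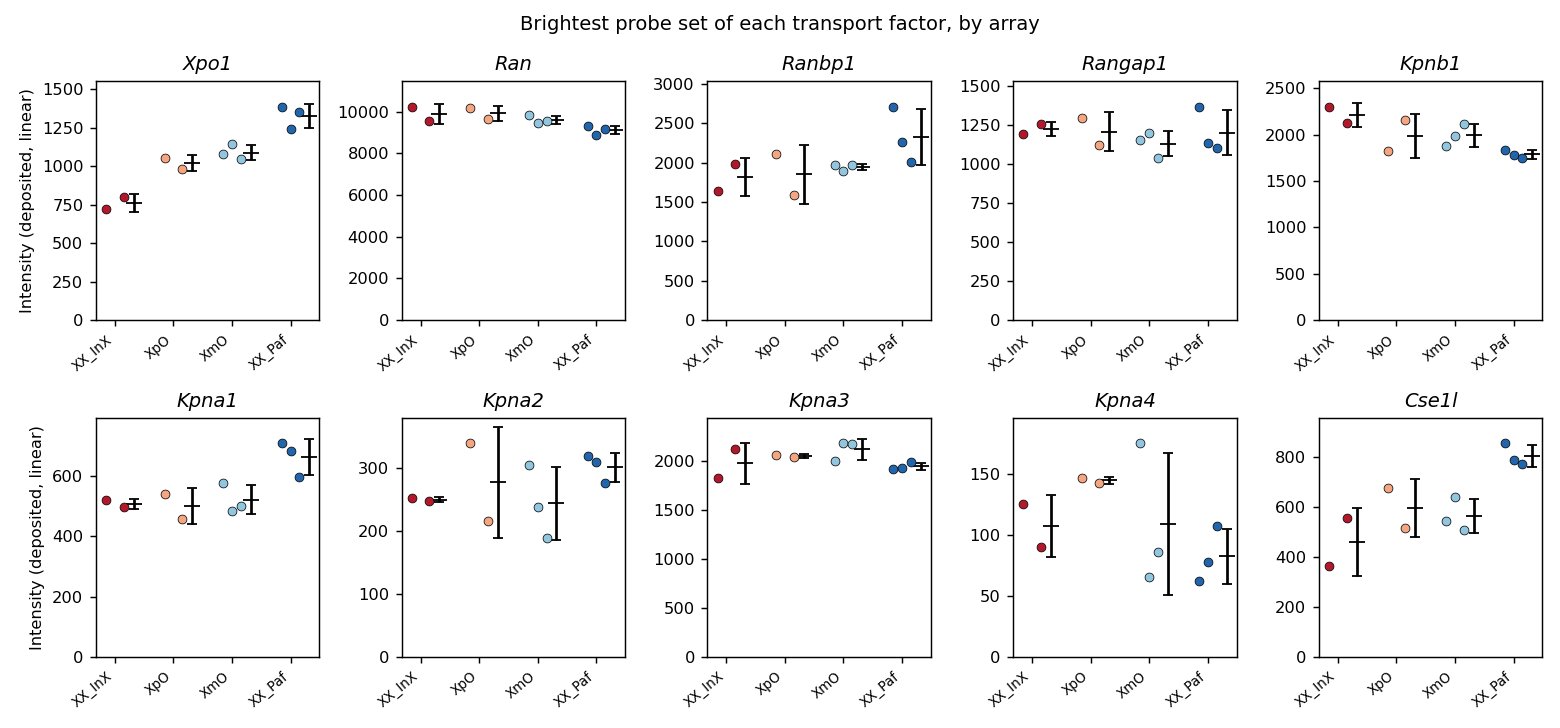
Intensity (linear, as deposited) of the brightest probe set of each of the 10 genes. Each point is 1 array, the bar and whiskers beside it are mean ± SD (n = 2 for XX_InX and XpO, n = 3 for XmO and XX_Paf), and every axis starts at 0. Xpo1 and Cse1l are highest on the 3 XX_Paf arrays, Kpnb1 is highest in XX_InX by its mean, and Ran, Rangap1 and Kpna3 are nearly level.

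The windows of 250 bases before the annotated start of Xpo1, Kpnb1 and Ran are printed because these genes stand for the patterns seen: higher values in XX_Paf, lower values in XX_Paf, and nearly level values. Ran too was lower on every XX_Paf array than on the XX_InX arrays, but by a small log2 difference (-0.12, SE 0.09). They come from RefSeq (GRCm38.p6), whose promoter table held 7 of the 10 genes, and run 5′ to 3′ on the strand of the gene. Capitals mark CCAAT on either strand (ATTGG on the other), the box bound by the factor NF-Y.
Xpo1 (chr11:23255791-23256040, plus strand): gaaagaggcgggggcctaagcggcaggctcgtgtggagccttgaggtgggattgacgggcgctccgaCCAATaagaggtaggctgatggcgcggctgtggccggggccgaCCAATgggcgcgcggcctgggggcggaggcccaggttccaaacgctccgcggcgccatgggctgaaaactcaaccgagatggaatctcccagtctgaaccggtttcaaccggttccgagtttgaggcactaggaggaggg
Kpnb1 (chr11:97187893-97188142, minus strand): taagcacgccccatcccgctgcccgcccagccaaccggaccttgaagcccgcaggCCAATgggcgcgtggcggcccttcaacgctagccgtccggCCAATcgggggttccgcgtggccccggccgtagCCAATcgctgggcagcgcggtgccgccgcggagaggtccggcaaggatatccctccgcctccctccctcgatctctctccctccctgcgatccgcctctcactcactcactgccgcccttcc
Ran (chr5:129019906-129020155, plus strand): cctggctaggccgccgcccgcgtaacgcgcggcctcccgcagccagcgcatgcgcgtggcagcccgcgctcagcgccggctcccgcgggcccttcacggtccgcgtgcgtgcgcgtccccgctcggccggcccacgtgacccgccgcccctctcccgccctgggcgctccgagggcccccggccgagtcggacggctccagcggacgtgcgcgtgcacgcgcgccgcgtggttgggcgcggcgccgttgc
CCAAT was found 2 times before Xpo1 and 3 times before Kpnb1, and not before Ran. It was found in 5 of the 7 windows available for these genes and in 33.8% of 32536 windows of the same length over all genes. Whether this box bears on the differences between groups was not tested. The E-box CACGTG was found before Ran and before none of the other 6, against 6.04% of all windows. GGGCGG, on either strand, was found in all 7 windows, that of Ran among them, against 33.0% of all windows. TTTGAA was found before Ranbp1 and Kpna2 only, against 15.8% of all windows. A match says only that these letters are present. Xpo1, Kpnb1 and Kpna2 lie on chromosome 11 and the other 7 genes elsewhere.

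Cse1l encodes the export carrier that returns importin alpha to the cytoplasm. It read 854, 787 and 772 on the XX_Paf arrays, 542, 638 and 508 in XmO, 676 and 513.5 in XpO, and 363 and 556 in XX_InX. As for Xpo1, every XX_Paf array was above all the others. The XX_InX arrays were not set apart, since XX_InX 19 lay above 2 of the XmO arrays and 1 XpO array. The means were 804 ± 43.5 in XX_Paf (n = 3), 563 ± 67.6 in XmO (n = 3), 595 ± 115 in XpO (n = 2) and 459.5 ± 137 in XX_InX (n = 2). XX_Paf over XX_InX came to 0.84 on the log2 scale (SE 0.20), the largest estimate among the 12 tested probe sets. It was 0.53 without XX_InX 1 and 1.15 without XX_InX 19, and Cse1l was not called in any of these fits.

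Kpnb1, importin beta, carries cargo inward either directly or through importin alpha, and it ran the other way. It read 2301 and 2123 in XX_InX, 1819 and 2152 in XpO, 1871, 1981.5 and 2117 in XmO, and 1832, 1781 and 1742 in XX_Paf. Both XX_InX arrays were above every XX_Paf array, and the XO arrays covered most of the range between them. The means were 2212 ± 126 in XX_InX (n = 2) and 1785 ± 44.9 in XX_Paf (n = 3), a log2 difference of -0.31 (SE 0.12) for XX_Paf over XX_InX, without a call. The dimmer Kpnb1 probe set was below background on 8 of 10 arrays.

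Of the importin alpha adaptors, which bridge the classical nuclear localisation signal to Kpnb1, Kpna1 was higher in XX_Paf than in every other group. It read 709.9, 686 and 598 in XX_Paf, 577, 486 and 503 in XmO, 543 and 458 in XpO, and 521 and 497 in XX_InX. Every XX_Paf array was above all 7 others, but unlike Xpo1 the XX_InX arrays lay within the range of the XO arrays. The log2 difference of XX_Paf over XX_InX was 0.38 (SE 0.16). Kpna2, the adaptor most abundant in dividing cells, read 319, 309.5 and 276 in XX_Paf and 253 and 248 in XX_InX, a narrow separation (0.27, SE 0.25). The XO arrays spread over both, from 189.9 to 340.0. Kpna3's brighter probe set was nearly level at 1832 to 2183 (-0.02, SE 0.11), whereas its dimmer one gave 0.51 (SE 0.31, 95% interval -0.16 to 1.18), an interval that holds the estimate of the brighter one. That dimmer set was below background on XmO 7 and XX_InX 1, and it gave 0.27 without XX_InX 1. Kpna4 was the dimmest adaptor measured, at 62.5 to 175, below background on 4 arrays, and its difference was -0.40 (SE 0.43; -0.16 without XX_InX 1 and -0.64 without XX_InX 19).

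In the Ran cycle, Ran itself was steady. It read 9323, 8906 and 9158 in XX_Paf, 9828, 9459.7 and 9558 in XmO, 10174 and 9677 in XpO, and 10250.1 and 9557 in XX_InX. The XX_Paf arrays were the lowest of all, yet the difference from XX_InX was small at -0.12 on the log2 scale (SE 0.09). A further probe set shared by Ran and the testis gene Rasl2-9, which is not counted here, had means from 5214 to 5306 over the groups. Ranbp1, which helps RanGAP take Ran-GTP off the carriers, read 2713, 2264 and 2015 in XX_Paf and 1646 and 1987 in XX_InX. Its groups were separate by a narrow gap (log2 difference 0.35, SE 0.16), and XpO 15 at 2113 lay among the XX_Paf arrays. Rangap1, the GTPase activator at the pore, was at 1040.5 to 1369.8 on its brighter probe set and all 4 groups overlapped there (-0.03, SE 0.14). Its dimmer probe set gave 0.26 (SE 0.21) with overlapping XX groups, and there both XpO arrays (752 and 706) were above both XX_InX arrays (685 and 567).

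Over the 12 tested probe sets, the median log2 difference of XX_Paf over XX_InX was 0.26, against -0.02 over all 8695, and 7 estimates were higher and 5 lower. 1 of the 12, Xpo1, was called by limma where 0.0805% of all probe sets were, and 5 had an unadjusted p under 0.05 where 13.8% of all did. The arrays did not overlap for 8 of the 12 (6 higher and 2 lower), beside the 37.1% given above (17.6% higher and 19.5% lower). Because Xpo1 was noticed in this comparison, these counts describe it and support nothing.

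XmO against XpO compares the same crosses in animals with 1 X, on arrays other than those on which Xpo1 was noticed, although the set was drawn up with results of all arrays known. No member was called by limma (0.0115% of all probe sets were), none had an unadjusted p under 0.05 where 4.83% of all did, and none had arrays that did not overlap, where 17.4% of all did. Xpo1 had a log2 difference of 0.09 (SE 0.13, 95% interval -0.18 to 0.37; limma adjusted p = 0.998). Cse1l had -0.07 (SE 0.20, interval -0.50 to 0.36; limma adjusted p = 0.998), and leaving out XpO 15 turned it to 0.13. Kpna1 had 0.06 (interval -0.28 to 0.40) and Ranbp1 0.09 (interval -0.26 to 0.43). Kpnb1 had 0.01 (interval -0.25 to 0.26), at -0.12 without XpO 15 and 0.13 without XpO 18. The median over the 12 was -0.06, against 0.00 over all probe sets. Among these 12, Kpna4 had the estimate of greatest size, -0.54 (SE 0.43; limma adjusted p = 0.998), with 1 XmO array at 175 and the others at 65.1 and 86.2; it was -0.95 without XmO 1 and -0.24 without XmO 2.

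**Figure D2:**
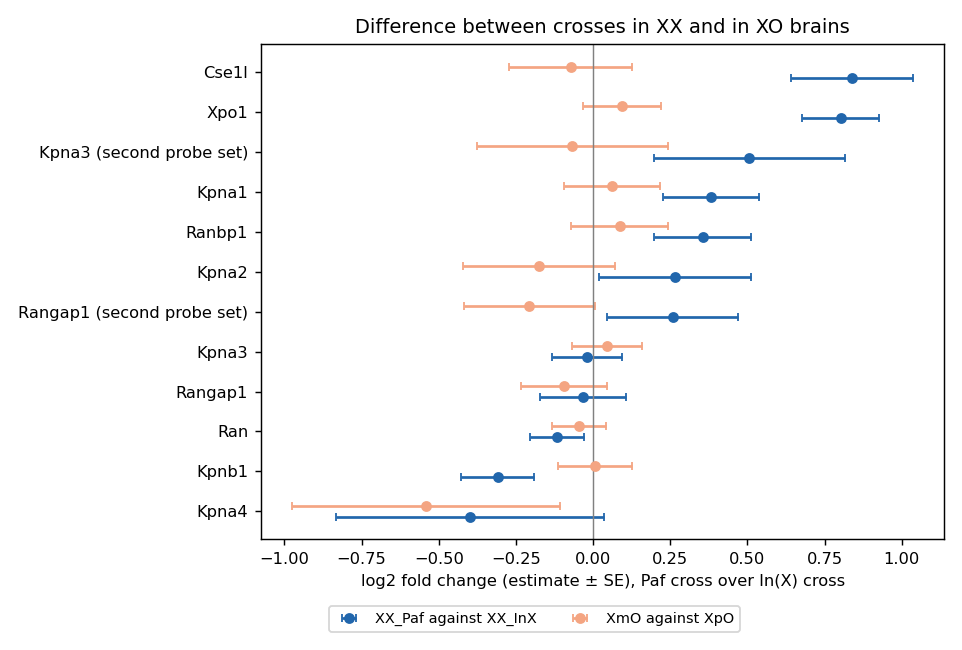
Log2 fold change of the Paf cross over the In(X) cross for the 12 tested probe sets, in XX females (XX_Paf against XX_InX) and in XO animals (XmO against XpO). Points are limma estimates and whiskers are ± SE; the XX estimates of Cse1l (0.84) and Xpo1 (0.80) stand to the right of their XO estimates (-0.07 and 0.09).

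Within each cross, XO animals were set against the XX females of the same cross. These comparisons use the XX arrays on which Xpo1 was noticed, and they share no array with each other. For Xpo1, every XmO array was below every XX_Paf array (log2 difference -0.29, SE 0.11) and both XpO arrays were above both XX_InX arrays (0.42, SE 0.14). Cse1l had the same signs, -0.52 (SE 0.18; limma adjusted p = 0.877) where the groups of the Paf cross were separate, and 0.39 (SE 0.22; limma adjusted p = 0.9998) in the other cross, where XpO 18 was below XX_InX 19. Its estimate in the In(X) cross was 0.08 without XX_InX 1 and 0.70 without XX_InX 19. Kpna1 had -0.35 (SE 0.14; limma adjusted p = 0.877) and -0.03 (SE 0.17; limma adjusted p = 0.9998). Ranbp1 had -0.25 (SE 0.14) and 0.02 (SE 0.17), with every XmO array below the XX_Paf arrays. Kpnb1 had 0.16 (SE 0.11) and -0.16 (SE 0.13), with every XmO array above the XX_Paf arrays. In the In(X) cross its value was -0.038 without XpO 15 and -0.28 without XpO 18.

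No member was called in either cross, where limma called 0.0230% of all probe sets for XmO against XX_Paf and 0.0115% for XpO against XX_InX. An unadjusted p under 0.05 was reached by 3 of 12 for XmO against XX_Paf (Xpo1, Kpna1 and Cse1l; 5.53% of all) and by 1 of 12 for XpO against XX_InX (Xpo1; 3.38% of all). The XmO and XX_Paf arrays did not overlap for 7 of 12 (3 higher and 4 lower in XmO; 13.9% of all, 6.96% higher and 6.97% lower), and the XpO and XX_InX arrays did not for 3 of 12, all higher in XpO (23.4% of all in either direction and 11.3% higher). No member was called by limma in the difference between these effects, where 0.0230% of all probe sets were. It was -0.71 for Xpo1 (SE 0.18), the 1 member whose groups were separate with opposite signs in the crosses (2.02% of all), and -0.91 for Cse1l (SE 0.28; limma adjusted p = 0.832), which was -0.60 without XX_InX 1 and -1.22 without XX_InX 19. For Kpnb1 it was 0.31 (SE 0.17; limma adjusted p = 0.845; 0.19 without XpO 15 and 0.44 without XpO 18). Averaged over both crosses, XO against XX gave no member a call (0.0115% of all), with Xpo1 at 0.07 (SE 0.09), Cse1l at -0.06 (SE 0.14; -0.22 without XX_InX 1 and 0.09 without XX_InX 19) and all 12 estimates between -0.19 (Kpna1) and 0.38 (Kpna4). Averaged over XX and XO, the Paf cross against the In(X) cross gave no member a call either (0.104% of all). Xpo1 was at 0.45 (SE 0.09), and at 0.41 to 0.49 with single arrays left out. Cse1l was at 0.38 (SE 0.14, limma adjusted p = 0.303), at 0.23 without XX_InX 1 and 0.54 without XX_InX 19. This average takes in the XX difference for which Xpo1 was noticed.

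**Figure D3:**
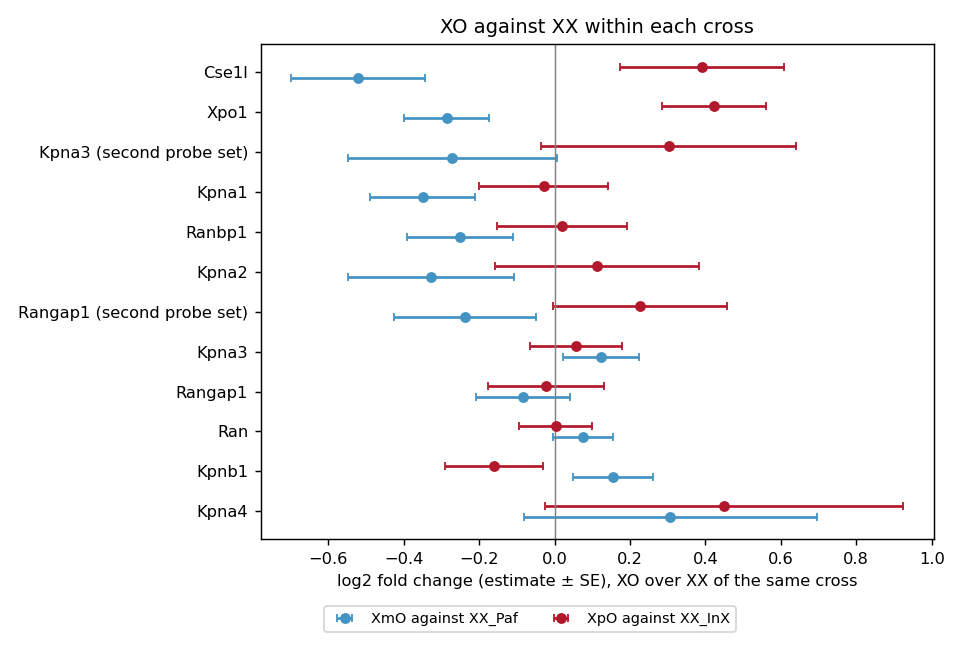
Log2 fold change of XO over XX within the Paf cross (XmO against XX_Paf) and within the In(X) cross (XpO against XX_InX) for the 12 tested probe sets, as limma estimates ± SE. Xpo1 (-0.29 and 0.42) and Cse1l (-0.52 and 0.39) have opposite signs in the crosses, and neither difference between the crosses is called.

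Array by array, Cse1l was the member most like Xpo1. Over the 10 arrays its log2 intensity correlated with that of Xpo1 at r = 0.88 (Spearman's rho 0.85), above 99.6% of all tested probe sets, and at 0.90 without the 2 XX_InX arrays, which lie farthest from the median of Xpo1. Within the 6 arrays of the Paf cross r was 0.96, and over all 10 arrays, after each group's mean was taken out (within groups), it was 0.83. Kpna3's dimmer probe set was at 0.69 (0.58 without XX_InX and 0.71 within groups), Ranbp1 at 0.68 (0.75 and 0.55) and Kpna1 at 0.65 (0.81 and -0.01). Kpnb1 was at the opposite end at -0.85 (rho -0.84), below all but 0.414% of tested probe sets, at -0.73 without XX_InX and -0.52 within groups. Ran was at -0.69, and at -0.70 without XX_InX, but at 0.00 within groups, so that for Ran and Kpna1 the relation lay between the group means. The values of the remaining members moved with the arrays used. Rangap1 was at 0.01, 0.35 without XX_InX and 0.72 within groups, and Kpna3's brighter probe set at 0.02, -0.61 without XX_InX and 0.51 within groups. Kpna2 was at 0.39 (0.48 and 0.33) and Kpna4 at -0.38 (-0.58 and -0.34). These are descriptions of 10 arrays that fall into the same crosses and share a scaling. Since Xpo1 was chosen for its pattern, they carry no test, and 5% of all tested probe sets had r over 0.72.

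**Figure D4:**
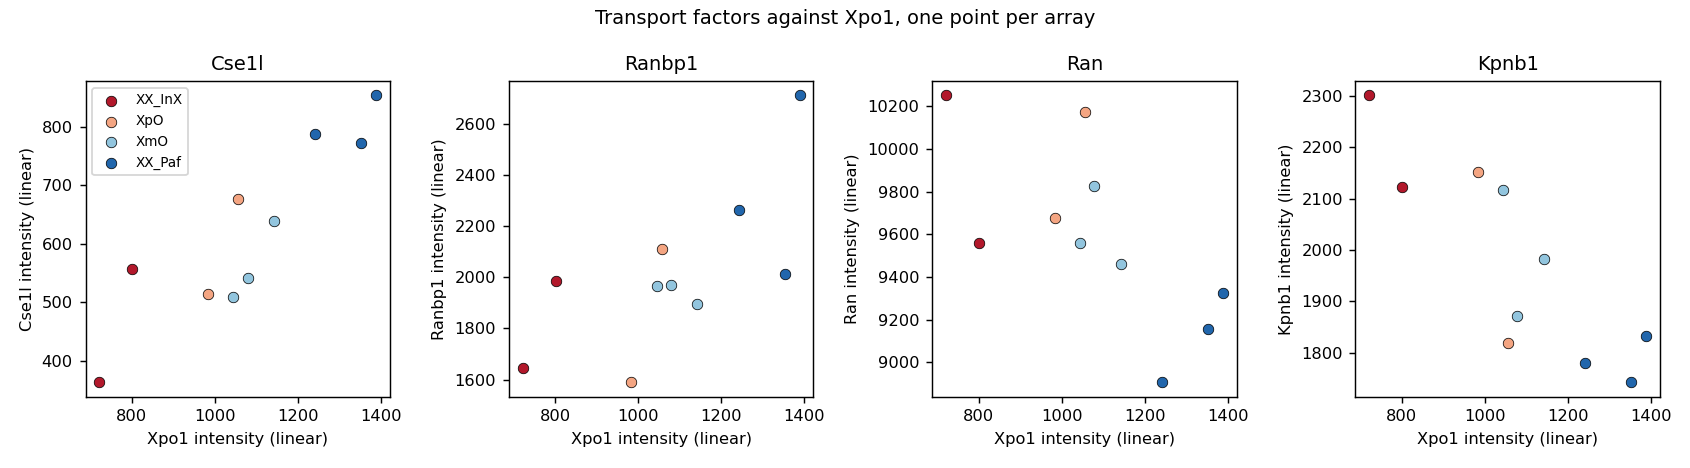
Intensity of Cse1l, Ranbp1, Ran and Kpnb1 (vertical axes, linear, not starting at 0) against intensity of Xpo1 (horizontal axes, linear, not starting at 0), with 1 point per array coloured by group. Cse1l rises with Xpo1 over the 10 arrays (r = 0.88 on log2 values) and Kpnb1 runs opposite (r = -0.85).

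Outside the 10 genes, and among probe sets with 1 gene symbol, the highest r to Xpo1 was found for N-cadherin (Cdh2, r = 0.97), gasdermin E (Gsdme, 0.96), Kank3 (0.95), the translation regulator Paip2 (0.94) and the ABC-family gene Abcf2 (0.92). Cdh2 had the closest match, with means of 2549 ± 38.5 in XX_Paf, 2186 ± 150 in XmO, 2038 ± 174 in XpO and 1716 ± 25.5 in XX_InX. 2 further probe sets without a single gene symbol had an r above that of Abcf2 and are not named.

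The wider transport machinery was taken from lists of 70 other gene symbols, some of them older names of a listed gene, and 36 genes were measured and tested. None was called by limma in XX_Paf against XX_InX, where 7 of 36 had an unadjusted p under 0.05 (13.8% of all probe sets did), 23 estimates were higher and 13 lower in XX_Paf, and the arrays did not overlap for 15 of 36 (37.1% of all). Of 11 further carriers of the importin beta family, 8 had higher estimates, and the median was 0.18. The groups were separate for 4 with higher and 2 with lower estimates. The import carriers Tnpo3 (0.45, SE 0.15; 1826 ± 44.7 in XX_Paf and 1335 ± 84.2 in XX_InX), Ipo8 (0.58, SE 0.20) and Ipo4 (0.30, SE 0.14) had higher estimates and separate groups. Xpo6, the export carrier of actin, had -0.25 (SE 0.15). Limma's adjusted p for these 4 lay between 0.223 and 0.464. Kpna6, the 1 further importin alpha gene tested, had 0.20.

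Among 12 further Ran cycle genes and carriers, 7 had higher estimates, and the median was 0.06. The mRNA export receptor Nxf1 had 0.54 (SE 0.17, limma adjusted p = 0.217; 442 ± 42.8 in XX_Paf and 303 ± 1.84 in XX_InX), and the Ran-binding genes Ranbp10 (-1.05, SE 0.33, limma adjusted p = 0.214) and Nup50 (-0.33, SE 0.18) had lower estimates. Among 12 nucleoporins, 7 had higher estimates with a median of 0.12. The groups were separate for 4 nucleoporins with higher and 2 with lower estimates. Among them were the scaffold genes Nup107 (0.52, SE 0.21) and Nup93 (0.52, SE 0.24), the mRNA export factor Rae1 (-0.61, SE 0.26) and Nup88 (-0.19, SE 0.13). Limma's adjusted p for the 4 named lay between 0.316 and 0.512. Within the crosses, which reuse the XX arrays, 13 of the 36 genes were higher and 23 lower in XmO than in XX_Paf. For XpO over XX_InX, 22 were higher and 14 lower. None was called by limma, and the groups were separate for 4 and 10 (13.9% and 23.4% of all). In the importin beta family 9 of 11 were lower in XmO, and 9 of 11 were higher in XpO. The Ran cycle genes had 6 of 12 lower in XmO and 5 of 12 higher in XpO, and the nucleoporins 7 of 12 and 8 of 12. Of all tested probe sets, 50.5% were higher in XmO than in XX_Paf, and 47.9% were higher in XpO than in XX_InX.

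In XmO against XpO the same 36 genes divided evenly, 18 higher and 18 lower, with none called by limma, 2 with an unadjusted p under 0.05 (4.83% of all) and 7 without overlap (17.4% of all). The medians were -0.03 for the importin beta family, 0.05 for the Ran cycle genes and -0.00 for the nucleoporins. Those 7 were the import carrier Ipo11 (-0.45, SE 0.18), the mRNA export regulator Gle1 (0.37, SE 0.16), Nxf1 (0.26, SE 0.17), Ranbp3 (0.18, SE 0.14), Nup88 (0.19, SE 0.13), Pom121 (-0.29, SE 0.19) and Aaas, with limma's adjusted p at 0.969 for Ipo11 and Gle1 and 0.998 for Ranbp3. Aaas was below background on all XmO arrays, so its fold is a bound on group means. The XpO mean was 1.75-fold above the mean XmO background, both taken on the log2 scale, without a call (limma adjusted p = 0.969). XpO 15, at 121, was below the background of XmO 7, at 136.6. Nxf1 was the 1 gene of the 36 with separate groups in the same direction, higher in the Paf cross, in both XX and XO animals. It was called in neither (limma adjusted p = 0.217 and 0.969), and the share of all probe sets with this pattern is not given here.

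**Figure D5:**
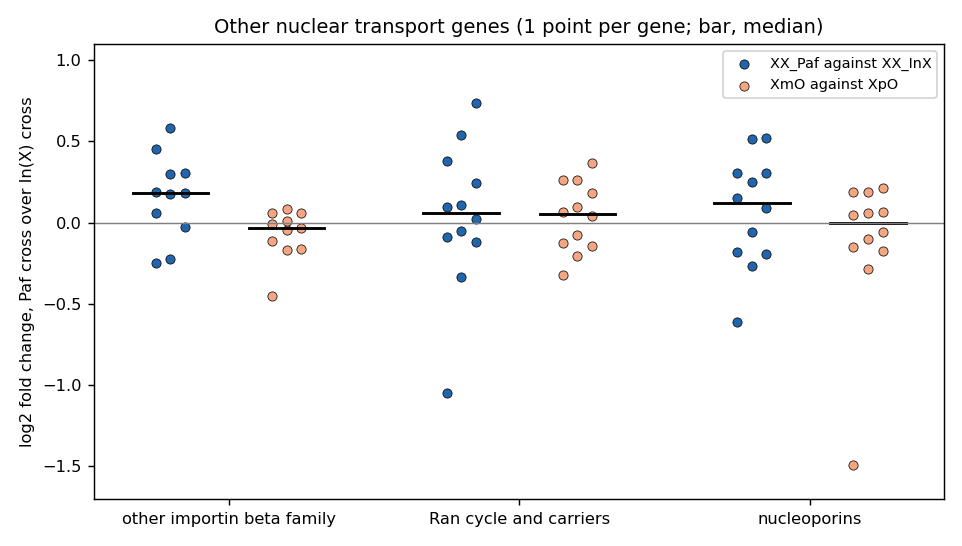
Log2 fold change of the Paf cross over the In(X) cross for 35 further nuclear transport genes in 3 lists (11, 12 and 12 genes), in XX females and in XO animals. Each point is 1 gene (limma estimate) and bars are medians, which lie at 0.18, 0.06 and 0.12 in XX and at -0.03, 0.05 and -0.00 in XO.

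Markers of other cells were summed in the same arrays, as intensities, and their part in the Xpo1 and Cse1l values was not tested. Of 10 marker lists, 3 had summed levels that were separate between XX_Paf and XX_InX. The erythroid sum (7 of 10 genes measured, 3 above background on every array) was 11822 to 17092 in XX_Paf and 4148 to 6335 in XX_InX. The genes of this list differed among themselves. The adult globin gene Hba-a1 (log2 difference 1.58, SE 0.22; limma adjusted p = 0.0211) was the 1 called gene of the 5 tested, Hbb-b2 had 1.36 (SE 0.24; limma adjusted p = 0.0798), Alas2 had 0.12, Slc4a1 0.09 and Hbb-bh1 -0.50. The choroid plexus sum (3 of 5 measured, 1 above background on every array) was 2441 to 3316 in XX_Paf and 1988 to 2225 in XX_InX. The microglia sum (8 of 8 measured, 6 above background on every array) was 2535 to 2623 in XX_Paf and 2638 to 3061 in XX_InX. Of the 6 microglia genes tested, 2 had higher and 4 lower estimates in XX_Paf.

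The other 7 lists overlapped between the XX groups, among them the genes of dividing cells (22 of 25 measured, 16 above background on every array), at 7295 to 7794 in XX_Paf and 7469 to 7536 in XX_InX. Between XmO and XpO, 3 of the 10 lists were separate. The erythroid sum was 11413 to 17473 in XmO and 6235 to 7603 in XpO. The sum for dividing cells was 6619 to 6911 in XmO and 7819 to 8051 in XpO. Of its 20 tested genes, 4 had higher and 16 lower estimates in XmO. The sum for astrocytes and radial glia (9 of 10 measured, 6 above background on every array) was 15434 to 15906 in XmO and 16383 to 17192 in XpO. Its 9 tested genes differed among themselves, with 4 estimates higher and 5 lower in XmO.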

How the data were processed

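The deposited table holds linear-scale intensities, 1 for each probe set on each of 10 arrays. How the authors summarised and scaled them is not given here; in the deposited intensities every array has a mean near 500.3 after trimming 2% at each end. The values were not normalized again. Of 12488 probe sets, 66 controls were left out, and 10833 of the rest had 1 gene symbol in the platform table (10817 matched to RefSeq by gene identifier). Intensities under 15.1, the 10th percentile, were raised to it, log2 was taken, and 8695 probe sets with a mean at or over the 30th percentile were tested.

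A model with 1 mean per group was fitted to all 10 arrays with limma 3.58.1 in R 4.3.3 (eBayes with intensity trend, 6 residual degrees of freedom), two-sided, with Benjamini-Hochberg adjustment within each of 7 contrasts over all tested probe sets. The fitting steps were run on simulated independent normal values, to check that the mean estimate matched the simulated difference. Such values hold no shared litters or scaling. A gene is named by its brightest probe set, the others being given beside it; from each wider list up to 4 genes are named, in order of p, among those with separate groups. The members and lists were chosen with earlier results of these data known. Alternatives changed the floor, filter, normalization, variance trend and arrays. Replicate numbers in the titles were not used to pair arrays in the main fit, since the labels do not say whether they do. The number of arrays limits the precision.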

Additional observations from a re-analysis of the deposited data

Results flagged for a closer look

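Xpo1 had opposite signs in the crosses with every array: all 3 XmO arrays were below the XX_Paf arrays and both XpO arrays were above the XX_InX arrays. The difference between the effects was -0.71 on the log2 scale (SE 0.18; limma adjusted p = 0.705). Non-overlap of opposite sign was found for 2.02% of all tested probe sets. The XX arrays on which it rests are those on which Xpo1 was noticed.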

How the results depend on the processing

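Of 84 log2 differences of members (12 probe sets in 7 contrasts), 574 values were computed under the 7 alternatives other than leaving out an array (2 dim probe sets did not pass the stricter filter), and 572 kept their direction and their side of the threshold. The exceptions were Ran in the difference between crosses, which turned from 0.07 to -0.018 under quantile normalization, and Xpo1 in XX_Paf against XX_InX, which lost its call without the intensity trend (0 members called; limma adjusted p = 0.183); the cause was not tested. With the replicate block (random, by the number in the titles; consensus correlation -0.05), 1 member was called in XX_Paf against XX_InX as without it, and no call changed. Leaving out single arrays gave 0 to 1 members called in XX_Paf against XX_InX and 0 to 1 in the Paf cross against the In(X) cross. In the latter the 1 call rested on a fit with 1 XpO array left. The other 5 contrasts stayed at 0. Of 840 such values, 55 changed sign, over 28 log2 differences, none of them called. In XmO against XpO the values ranged from -0.27 to 0.13 for Cse1l, from -0.061 to 0.18 for Kpna1, from -0.50 to 0.15 for Kpna2, from -0.32 to 0.075 for the dimmer Kpna3 probe set, from -0.12 to 0.13 for Kpnb1, from -0.12 to 0.29 for Ranbp1 and from -0.20 to 0.010 for Rangap1. In XO against XX the values ranged from -0.22 to 0.090 for Cse1l, from -0.27 to 0.057 for Kpna2, from -0.11 to 0.14 for the dimmer Kpna3 probe set, from -0.063 to 0.059 for Kpnb1 and from -0.093 to 0.075 for the dimmer Rangap1 probe set. In XpO against XX_InX the values ranged from -0.15 to 0.093 for Kpna1, from -0.22 to 0.44 for Kpna2, from -0.051 to 0.16 for Kpna3, from -0.047 to 0.054 for Ran, from -0.19 to 0.22 for Ranbp1 and from -0.13 to 0.082 for Rangap1. In the Paf cross against the In(X) cross the values ranged from -0.12 to 0.21 for Kpna2, from -0.041 to 0.067 for Kpna3 and from -0.056 to 0.11 for the dimmer Rangap1 probe set. In the difference between crosses the values ranged from -0.042 to 0.17 for Kpna3, from -0.55 to 0.16 for Kpna4 and from -0.17 to 0.043 for Rangap1. In XX_Paf against XX_InX the values ranged from -0.13 to 0.088 for Kpna3 and from -0.13 to 0.025 for Rangap1. In XmO against XX_Paf the values ranged from -0.10 to 0.61 for Kpna4 and from -0.14 to 0.013 for Rangap1. The number of called probe sets over all genes in XX_Paf against XX_InX was 7, and 2 without the trend, 17 without the filter and 2 to 17 over the leave-outs.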
